A study of Mus musculus with 3 samples.

Results

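Chemokines are small secreted proteins that guide moving cells, and their receptors are 7-helix membrane proteins that signal through inhibitory G proteins. Ligands are named CXC, CC, XC or CX3C by the spacing of their conserved cysteines, and receptors carry the name of the ligand class they bind. A set of atypical receptors binds the same ligands without G protein signalling and removes or stores them. In the uterus and the early embryo, chemokines are known as part of the exchange between the blastocyst and the endometrium. Several of them belong to the senescence-associated secretory phenotype, the group of factors that senescent cells release.

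All genes of this family with a named probe on the array were collected by symbol (Ccl, Cxcl, Ccr, Cxcr or Ackr followed by a digit, with Xcl1, Xcr1, Cx3cl1, Cx3cr1, Ppbp, Pf4 and Ccrl2). This gave 61 genes with 77 probes, of 23458 named genes and 56591 probes on the array. They comprised 37 ligands and 24 receptors, and 47 genes had 1 probe, 12 had 2 and 2 had 3. A further 9 symbols of the gene table had no probe, Cxcl11 and 8 copies or pseudogenes of Ccl16, Ccl19, Ccl21 and Ccl27.

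The RNA came from ICR mouse blastocysts grown in KSOM medium for 96 h from zygotes flushed 18 h after hCG. The dams were superovulated and mated, and were 3 to 6 weeks old (young) or 43 to 53 weeks old (aging). Part of the aging embryos was cultured with 10 μg/ml of an antibody that neutralizes CXCL5 and 10 nM of a selective CXCR2 antagonist (suppressed aging), and no young embryos received these agents. Each condition was 1 pool of 30 blastocysts on 1 Agilent one-colour array, so no difference below has a replicate, and none was tested. The antibody and the antagonist were given together and cannot be told apart, nor can a condition be told apart from its pool of embryos. In such pools, fewer cells of a type and less RNA per cell cannot be told apart either.

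The level of a probe was its log2 intensity minus the 75th percentile of its array, and a probe counted as above background by the scanner software's own call. With 1 array per condition, the precision of each value is limited by the number of arrays. Probes above background made up 58.4%, 58.7% and 56.4% of the young, aging and suppressed aging array, and the lowest intensity so called was 7.89, 7.73 and 8.01. All 14 markers of trophectoderm, epiblast and primitive endoderm were above background on the 3 arrays. Of 12 macrophage and leukocyte markers, 5, 7 and 6 were above background on the young, aging and suppressed aging array. Their summed level (linear, in units of the array's 75th percentile) was 230 to 267, mostly Itgam. Itgam, Csf1r, Cd68, Laptm5 and Itgb2 were above background on all 3 arrays. Fcer1g was so on the aging and suppressed aging array and Cd14 on the aging array alone. Ptprc, Adgre1, Lyz2, Tyrobp and Cd52 were not above background on any. Of 8 neutrophil markers, 4, 3 and 4 were above background, with a summed level of 190 to 199, mostly Csf3r. Csf3r, Ly6g and Camp were above background on all 3 arrays and Mpo on the young and suppressed aging array. S100a8, S100a9, Elane and Ngp were not above background on any. Of 8 T, B and NK cell markers, 2, 3 and 3 were above background (summed level 2.00 to 2.30), with Cd3e and Cd4 on all 3 arrays. Of 11 cumulus and granulosa markers, 4, 5 and 4 were above background (summed level 374 to 439, mostly Foxl2). Foxl2, Cyp19a1, Ptgs2 and Amh were so on all 3 arrays and Pgr on the aging array alone. Has2, Fshr, Inha, Ptx3, Tnfaip6 and Hsd3b1 were at background. The part of other cells in the chemokine values was not tested.

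The chemokine family was detected less often than the array as a whole. A probe was above background for 21 of 61 genes on the young array (34.4%), against 65.1% of all named genes there. On the aging array this held for 20 of 61 (32.8%), against 65.5%, and on the suppressed aging array again for 20, against 63.8%. In all, 16 genes were above background on all 3 arrays (26.2%, against 59.2% of all named genes), 2 on 2 arrays, 9 on 1 array and 34 on none, so that 27 genes (44.3%, against 70.8%) were seen at least once. Of all 23458 named genes, 1203 were above background on 2 arrays, 1525 on 1 and 6842 on none. Ligands and receptors stood apart, with 18, 16 and 15 of 37 ligands above background on the young, aging and suppressed aging array but 3, 4 and 5 of 24 receptors.

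**Figure D1:**
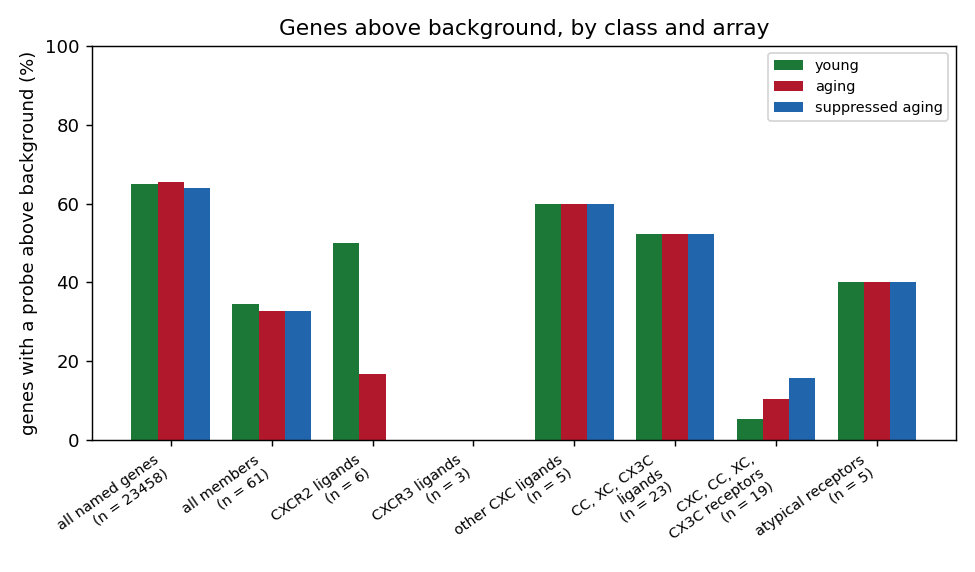
Percent of genes with a probe above background on the young (green), aging (red) and suppressed aging (blue) array, for all 23458 named genes, all 61 members and each ligand and receptor class, with the number of genes under each name. Each bar is 1 array. The CXCR2 ligands run from 3 of 6 through 1 of 6 to 0 of 6, the CXCR3 ligands are at 0, and the conventional receptors run from 1 to 3 of 19. The runs of the CXCR2 ligands and of the conventional receptors depend on this call. By the looser call of a positive and significant signal, Cxcl2, Cxcl5, Cxcl15 and Ppbp were detected on all 3 arrays and Cxcl1 on the young array. The receptors Xcr1, Ccr4, Ccr7, Ccr8 and Cxcr4 were so detected on all 3 arrays.

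The sequences before the transcription starts of 3 members are shown because the results turn on them: Cxcr2, Cxcl2 and Cx3cl1. Cxcr2 is the receptor that the antagonist blocks, and Cxcl2 is the CXCR2 ligand above background on both untreated arrays. Cx3cl1 had the largest difference by the brightest probe of each gene, with bounds taken at their smallest value. Each is the 250 bases before the start as RefSeq gives them (mouse GRCm38.p6, plus strand), at chr1:74153744-74153993 for Cxcr2, chr5:90903649-90903898 for Cxcl2 and chr8:94771930-94772179 for Cx3cl1. Capitals mark the TATA box TATAAA, the GC box GGGCGG and the NF-kB consensus, and neither these nor the core of the interferon response element were found in the Cxcr2 window.
Cxcr2: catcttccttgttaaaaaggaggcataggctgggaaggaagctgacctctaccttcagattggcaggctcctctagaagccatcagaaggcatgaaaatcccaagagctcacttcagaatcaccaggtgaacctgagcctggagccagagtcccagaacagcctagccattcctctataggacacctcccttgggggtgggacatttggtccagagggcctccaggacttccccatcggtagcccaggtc
Cxcl2: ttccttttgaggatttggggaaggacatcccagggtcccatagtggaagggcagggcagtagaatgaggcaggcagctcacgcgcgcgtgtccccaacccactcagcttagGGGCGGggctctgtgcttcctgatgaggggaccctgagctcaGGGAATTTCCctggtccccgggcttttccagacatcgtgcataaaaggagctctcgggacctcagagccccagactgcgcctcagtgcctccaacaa
Cx3cl1: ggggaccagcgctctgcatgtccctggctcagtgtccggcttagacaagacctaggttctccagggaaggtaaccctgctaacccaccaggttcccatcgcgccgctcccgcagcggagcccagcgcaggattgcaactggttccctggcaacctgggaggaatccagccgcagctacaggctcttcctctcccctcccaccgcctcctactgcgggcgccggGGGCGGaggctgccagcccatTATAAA
Windows were at hand for 47 member genes (53 windows), and both strands were searched. The NF-kB consensus was in 11 of the 53 member windows (20.8%), among them those of Cxcl1, Cxcl2, Cxcl3, Cxcl10 and Ccl20, and in 5.0% of all 32851 windows of this length. TATAAA was in 28.3% of the member windows and 12.4% of all windows, GGGCGG in 17.0% and 32.7%, and the interferon response element in 5.66% and 2.98%. A match is a run of letters and not a shown binding site.

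The axis that the treatment addressed lay near or under background. Cxcl5, the ligand that the antibody neutralizes and an attractant of neutrophils, had an intensity of 11.1 ± 2.24 (scanner error) in young, 6.08 ± 1.98 in aging and 7.31 ± 1.83 in suppressed aging blastocysts. Only the young value was above background, at a log2 level of -3.71. By the bounds, the aging array was at least 1.52-fold and the suppressed aging array at least 1.16-fold lower. These bounds take the young value as exact and leave out its scanner error. The lowest intensities called above background on the other 2 arrays were 7.73 and 8.01. The looser call of a positive and significant signal took in all 3 Cxcl5 values. Cxcr2, the receptor of Cxcl5, had an intensity of 2.06 on the young and 1.63 on the aging array, neither above background, and of 14.1 on the suppressed aging array, with a scanner error of 2.20. It was thus at least 2.30-fold higher on the suppressed aging than on the aging array and at least 2.11-fold higher than on the young array. These bounds, too, leave out the scanner error of the brighter value. Normexp is a background correction that shrinks differences of dim probes. With it, the Cxcr2 log2 difference of suppressed aging against aging was 0.46, in place of 1.20.

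Of the other ligands of CXCR2, only Cxcl2 was above background on more than 1 array. Cxcl2 (MIP-2) had intensities of 17.5 and 21.0 on the young and aging array, with scanner errors of 2.48 and 2.72 and a log2 difference of 0.17 (error 0.28), and an intensity of 7.40 on the suppressed aging array, where it was not well above background. The suppressed aging array was therefore at least 2.08-fold below the aging and at least 1.85-fold below the young array. These bounds also leave out the scanner error of the brighter value. With normexp the log2 difference of suppressed aging against aging was -0.03, in place of -1.06. Ppbp, the platelet ligand from which NAP-2 is cut, was above background on the young array only, at an intensity of 10.1 (error 1.91) against 3.18 and 5.68. By bounds that leave out this error, the aging and suppressed aging arrays were at least 1.39-fold and at least 1.06-fold lower. Of 7 erythroid and platelet markers, 4, 2 and 1 were above background on the young, aging and suppressed aging array (summed levels 1.14, 1.66 and 0.64). The platelet genes Itga2b and Gp1ba among them were above background on the young array only, as Ppbp was, while Gp9 and Hbb-bt were at background on all, and their part in the Ppbp value was not tested. Cxcl1 (KC), Cxcl3 and Cxcl15 (lungkine) were not well above background on any array, and neither was Cxcr1, the other receptor of this ligand group. Cxcl5, Ppbp, Pf4, Cxcl3, Cxcl15, Cxcl1 and Cxcl2 are neighbours in the genome, and of these 7 genes 3 were seen on some array and none on all 3.

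**Figure D2:**
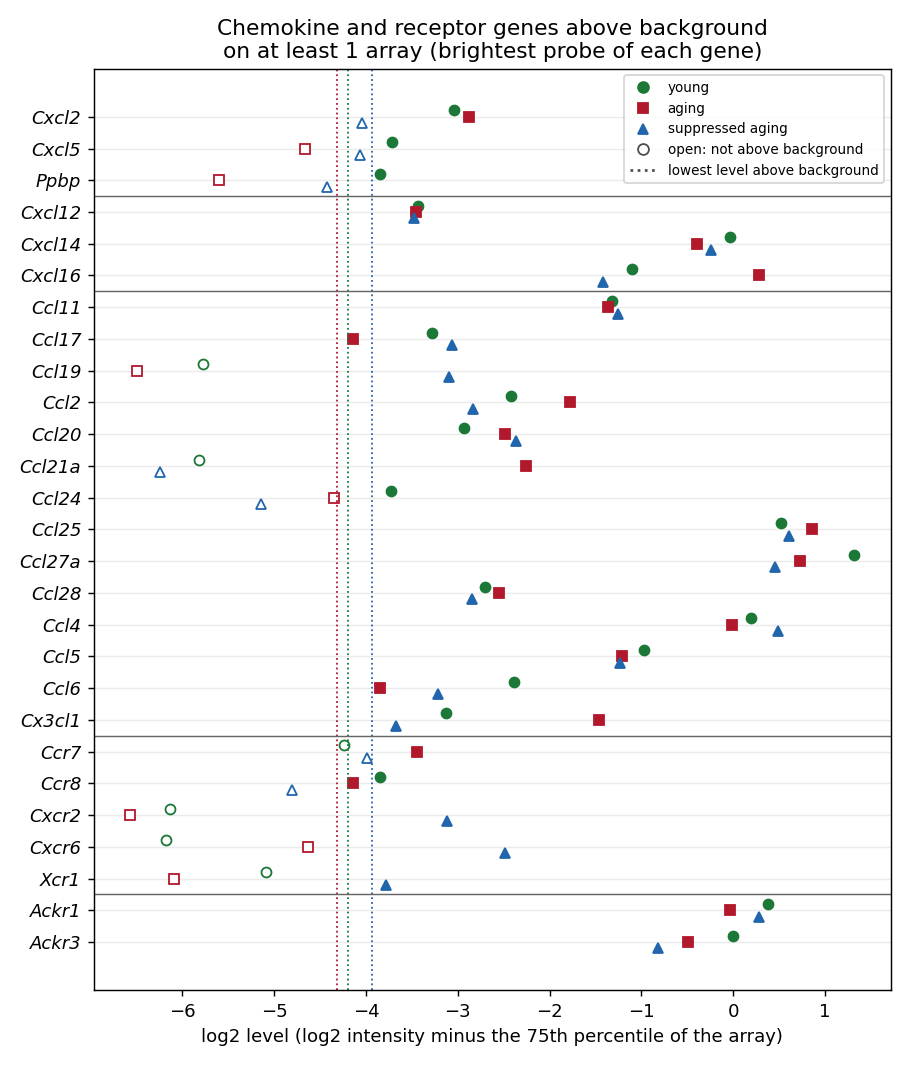
Log2 level (log2 intensity minus the 75th percentile of the array, horizontal axis) of the 27 member genes above background on at least 1 array, by the brightest probe of each gene. Circles stand for the young, squares for the aging and triangles for the suppressed aging array, open symbols are not above background, dotted lines are the lowest level called above background on each array, and grey lines part the classes. Cxcr2, Cxcr6, Xcr1 and Ccl19 are filled on the suppressed aging array alone, and Cx3cl1 and Cxcl16 are highest on the aging array. Levels of different genes come from different probes and are not to be compared.

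Among the other CXC ligands, Cxcl16 was the clearest. It is a membrane-anchored ligand of CXCR6 that also serves as a scavenger receptor. In young, aging and suppressed aging blastocysts its brighter probe stood at a log2 level of -1.11, 0.28 and -1.42, and its other probe at -2.60, -1.42 and -2.91. Both probes were highest on the aging array and lowest on the suppressed aging array. The aging array was above the young one by 1.39 and 1.18 on the log2 scale, and the suppressed aging array differed from the aging one by -1.70 and -1.49. Scanner errors of these differences were 0.21 to 0.26. Between the suppressed aging and the young array both probes differed by -0.31, with errors of 0.21 and 0.28. Cxcl16 overlaps Zmynd15 in the gene table.

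Cxcl14, a ligand made by many epithelia, had 2 probes that parted. The brighter one was level, at -0.04, -0.40 and -0.24 on the young, aging and suppressed aging array. The other lay at -2.02, -1.03 and -3.27, so that it was highest on the aging array with log2 differences of 0.99 against young and -2.24 between suppressed aging and aging. The probes were designed to different transcript records, and which of them reads the gene's main transcript was not tested. Cxcl12 (SDF-1), which holds CXCR4-bearing stem cells in their niche, was level by 1 probe, at -3.43, -3.46 and -3.48, while its other probe was not well above background. Of the CXCR3 ligands, Cxcl9, Cxcl10 and Pf4 were not well above background on any array, and of the remaining CXC ligands Cxcl13 and Cxcl17 were not.

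Cx3cl1 (fractalkine) is a membrane-anchored adhesion ligand that is shed by ADAM10 and ADAM17. It had the largest difference of the family by the brightest probe of each gene, with bounds taken at their smallest value. Its single probe stood at a log2 level of -3.13 in young, -1.47 in aging and -3.67 in suppressed aging blastocysts. The aging array was 3.16-fold above the young one, a log2 difference of 1.66 with a scanner error of 0.27. The suppressed aging array was 4.61-fold below the aging one, at -2.21 with an error of 0.33. The suppressed aging and young arrays differed by -0.55, with an error of 0.37. Of the stromal markers, Col1a1 was also highest on the aging array, at -3.47, -1.39 and -3.16. Col1a2 was level at -2.54, -2.78 and -2.25, and Col3a1, Dcn and Lum were at background. Of the endothelial markers, Cdh5 was lowest on the aging array, at -2.45, -3.33 and -2.50. Pecam1 stood at -1.30, -1.39 and -0.55, and Kdr and Tek were at background. Over the 9 endothelial and stromal markers 4 were above background on each array, with summed levels of 0.93, 1.11 and 1.28. The part of such cells in the Cx3cl1 value was not tested.

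Among the CC ligands, the members seen on 1 array or apart between arrays were few. Ccl21a (secondary lymphoid chemokine), a ligand of CCR7, was above background only on the aging array, at -2.26, which was at least 3.83-fold above young and at least 3.19-fold above suppressed aging. Its near-identical copies Ccl21b, Ccl21c and Ccl21d have no probe of their own name, so its signal may include theirs. Ccl19, the other CCR7 ligand, was above background only on the suppressed aging array, at -3.10, at least 2.33-fold above aging and at least 2.14-fold above young. Ccl24 (eotaxin-2) was above background only on the young array, at -3.73.

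Ccl2 (MCP-1), the monocyte attractant, stood at -2.42 in young, -1.78 in aging and -2.84 in suppressed aging blastocysts, and the last difference was 2.09-fold. Ccl6 was lowest on the aging array, at -2.38, -3.84 and -3.21, and was 2.75-fold lower on the aging than on the young array. Ccl17 (TARC), a ligand of CCR4, was also lowest on the aging array, at -3.28, -4.14 and -3.07, and was 2.11-fold higher on the suppressed aging than on the aging array. Against the young array, the aging array was thus lower for Ccl6 and Ccl17 and higher for Ccl2.

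Several CC ligands were nearly level over the 3 arrays. Ccl25 (TECK), the ligand of CCR9, stood at 0.52, 0.86 and 0.60. Ccl11 (eotaxin) stood at -1.32, -1.36 and -1.25, and Ccl5 (RANTES) at -0.97, -1.21 and -1.24. Ccl20, the ligand of CCR6, stood at -2.93, -2.49 and -2.37. For none of these did any pair of arrays differ by more than 1.48-fold.

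Ccl27a, Ccl4 and Ccl28 had more than 1 measured probe. The brightest Ccl27a probe stood at 1.32, 0.73 and 0.45 in young, aging and suppressed aging blastocysts, and the other probes at -1.04, -0.33 and -1.24 and at -0.91, -0.28 and -1.11. The brightest probe was thus highest on the young array and the other 2 were highest on the aging array. The 3 probes carry 3 different transcript records, and the gene overlaps Il11ra1. Ccl4 (MIP-1 beta) stood at 0.20, -0.01 and 0.49 by its brighter and at -2.01, -1.65 and -1.82 by its other probe. Ccl28, a mucosal ligand of CCR10 and CCR3, stood at -2.70, -2.55 and -2.85 by its brighter probe, and its other probe differed by 0.01, 0.30 and 0.31 in the 3 comparisons, with errors of 0.27. The remaining ligands, Ccl1, Ccl3, Ccl7, Ccl8, Ccl9, Ccl12, Ccl22, Ccl26 and Xcl1, were not well above background on any array.

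Over the 5 genes with more than 1 measured probe, the 2 brightest probes gave the same direction for 2 genes in aging against young, where 56.7% of all genes with 2 measured probes did. They did so for 2 genes in suppressed aging against aging (54.8% of all) and for 4 genes in suppressed aging against young (56.1% of all). Cxcl16 was the only member whose probes were both over 2-fold apart the same way, in aging against young (2.80% of all such genes) and in suppressed aging against aging (2.17%), and in suppressed aging against young no member was (1.95%). With normexp background correction its probes differed by 1.0 and 0.34 and by -1.17 and -0.36, and neither call held. Probes of a gene read the same pool and are not replicates.

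**Figure D3:**
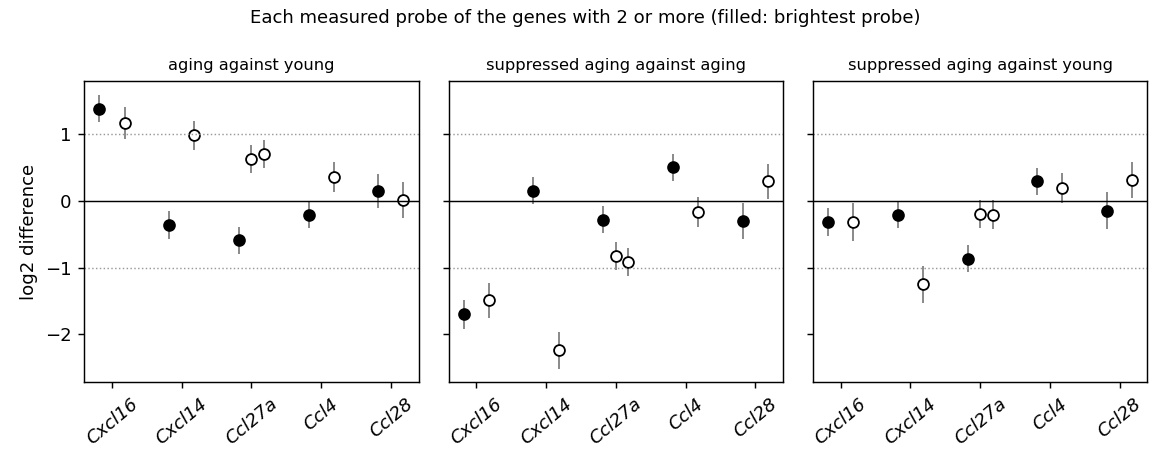
Log2 difference of each probe above background on both arrays, for the 5 genes with 2 or more such probes, in the 3 comparisons. Filled points are the brightest probe of a gene, bars are the scanner's own error (spot error only, 1 array each), and dotted lines mark 2-fold. The 2 Cxcl16 probes lie together at 1.39 and 1.18 and at -1.70 and -1.49, while those of Cxcl14 lie apart, at 0.16 and -2.24 in suppressed aging against aging.

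Few receptors of these ligands were seen. No conventional receptor was above background on all 3 arrays. Cxcr6, the receptor of Cxcl16, was above background only on the suppressed aging array, at a log2 level of -2.48, at least 3.57-fold above aging and at least 3.28-fold above young. Its other probe was not well above background on any array. Xcr1, the receptor of XCL1 on dendritic cells, was likewise above background only on the suppressed aging array, at -3.78, at least 1.45-fold above aging and at least 1.34-fold above young. With Cxcr2 these made 3 of 19 receptors on that array, against 1 on the young and 2 on the aging array. This run depends on the call. By the looser call of a positive and significant signal, Xcr1, Ccr4, Ccr7, Ccr8 and Cxcr4 were detected on all 3 arrays. Cxcr2 was so detected on the young and suppressed aging array, and Cxcr6 on the aging and suppressed aging array. Of all named genes, 63.8%, 65.1% and 65.5% were above background on these arrays. On 1 array only were 4 of these 19 receptors and 1525 of all 23458 named genes. The Xcr1 intensity was 8.90, where the lowest so called on that array was 8.01. Of 6 oviduct epithelium markers, 2, 1 and 4 were above background on the young, aging and suppressed aging array (summed levels 60.1, 43.1 and 57.6, mostly Epcam). Ovgp1 and Wt1 were above background on the suppressed aging array alone and Foxj1 and Pax8 on none, and their part in the receptor values was not tested.

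Ccr7, the lymph node homing receptor, was above background only on the aging array, by 1 of its 2 probes, at -3.45. Ccr8 was above background on the young and the aging array, at -3.85 and -4.14, close to the lowest level so called. Cxcr4, the receptor of Cxcl12, was not well above background by either probe, nor were Cxcr1, Cxcr3, Cxcr5, Cx3cr1, Ccr1, Ccr1l1, Ccr2, Ccr3, Ccr4, Ccr6, Ccr9 and Ccr10. For Cx3cl1, Ccl2, Ccl20 and Ccl25 the ligand was thus well above background on all 3 arrays and its main receptor on none. By the looser call of a positive and significant signal, Cx3cr1 was detected on the young array, at an intensity of 8.24 (error 2.08). Ccr9 was so detected on the young and suppressed aging array and Ccr6 on the suppressed aging array.

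Of the atypical receptors, Ackr3 (CXCR7), which scavenges Cxcl12, stood at 0.00 in young, -0.50 in aging and -0.82 in suppressed aging blastocysts, and the last was 1.77-fold below the first. Ackr1 (the Duffy antigen receptor) stood at 0.38, -0.04 and 0.28 by its brighter probe, and its other probe was above background on the aging array alone, at -3.33. Ackr1 overlaps Cadm3. Ackr2, Ackr4 and Ccrl2 were not well above background on any array.

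No member had a measured difference or a bound of 5-fold or more in any comparison, by the brightest probe of each gene. A bound is a smallest value, so members with a bound may differ by 5-fold or more, and the counts here cannot tell. Between aging and young blastocysts, 23 members had a measured difference, 18 on both arrays and 5 as a bound, and 0 were over 5-fold, where 2.59% of all named genes were. Over 2-fold there were 4, of which Ccl21a, Cx3cl1 and Cxcl16 were higher (9.86% of all named genes were) and Ccl6 was lower (9.19%) on the aging array. Over 2-fold in either direction were 19.0% of all named genes and 26.4% of named genes in the same range of levels. The median difference was -0.21, with 9 higher and 14 lower, against 0.03 for all named genes. The members' share over 2-fold was thus near that background.

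Between suppressed aging and aging blastocysts, 23 members were measured, 0 were over 5-fold (2.29% of all named genes) and 9 were over 2-fold, against 17.3% of all named genes and 24.7% of those in the same range of levels. Cxcr2, Cxcr6, Ccl19 and Ccl17 were higher on the suppressed aging array (8.77% of all named genes were), and Cx3cl1, Cxcl16, Ccl21a, Ccl2 and Cxcl2 were lower (8.50%). The median difference was -0.02, against 0.00 for all named genes. Of the 9, 5 were bounds, set by the background of the dimmer array.

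Between suppressed aging and young blastocysts, 25 members were measured, 0 were over 5-fold (2.43% of all named genes) and 3 were over 2-fold, against 16.3% of all named genes and 22.7% of those in the same range of levels. These were Cxcr6, Ccl19 and Cxcr2, all bounds and all higher on the suppressed aging array (8.67% of all named genes were, and 7.64% were lower). The median difference was -0.10, against 0.03 for all named genes. The 3 comparisons share arrays in pairs: the aging array is in the first and the second, so a high value on it alone gives a higher value in one and a lower value in the other.

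**Figure D4:**
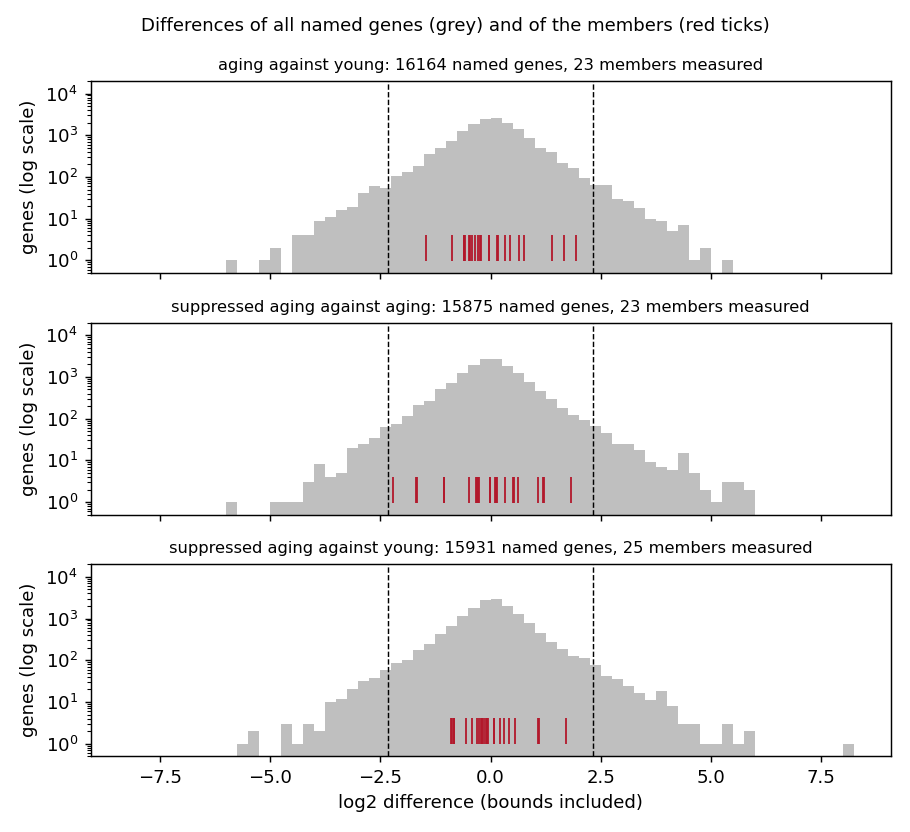
Number of named genes (grey bars, log scale) by log2 difference in each comparison, bounds included, with the measured members as red ticks and the 5-fold threshold as dashed lines. No tick lies past the dashed lines: the members run from -1.46 to 1.94, from -2.21 to 1.84 and from -0.89 to 1.71.

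Of 36 genes through which chemokine receptors act (G protein subunits, kinases, arrestins, phospholipases and others), 27, 28 and 26 were above background on the young, aging and suppressed aging array (65.1%, 65.5% and 63.8% of all named genes were), and 0 were over 5-fold in any comparison by the brightest probe of each gene. Over 2-fold there were 3 of 28 measured in aging against young, 5 of 28 in suppressed aging against aging and 5 of 27 in suppressed aging against young, with medians of 0.03, -0.15 and 0.12. Over 2-fold were 19.0%, 17.3% and 16.3% of all named genes. Cdc42, a small GTPase of cell movement and by mean level the brightest of this list, stood at 6.49, 6.50 and 7.31. Of genes known from leukocytes, Rac2 was above background on all 3 arrays, at -3.36, -4.06 and -3.29, and Dock2 on the young and aging array, while Pik3cg, Pik3r5 and Plcb2 were not well above background on any.

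Of 25 genes that induce chemokines (NF-kB, interferon and cytokine genes), 20, 22 and 21 were above background, 0 were over 5-fold, and 5 of 22, 9 of 23 and 6 of 24 were over 2-fold, with medians of -0.06, 0.28 and 0.01, against the same shares of all named genes (19.0%, 17.3% and 16.3%). Chuk (IKK alpha), with the brightest probe of the list, stood at 2.67, 2.55 and 2.92. Chosen after its values were seen, Relb, the non-canonical NF-kB subunit, was above background on the aging and suppressed aging array only, at -2.16 and -1.88, at least 4.10-fold and at least 4.99-fold above young, and its other probe was above background on the aging array alone.

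Of 9 proteases and partners of chemokines, 8, 7 and 7 were above background (65.1%, 65.5% and 63.8% of all named genes were). Over 2-fold were 3 of 8, 1 of 7 and 2 of 8 measured, with medians of 0.23, -0.09 and -0.16, against 19.0%, 17.3% and 16.3% of all named genes. By its brighter probe, Mmp9 was above background on the young array only, at least 4.78-fold above aging and at least 4.42-fold above suppressed aging. Its other probe was not well above background on any array. Dpp4 (CD26), the peptidase that trims the first residues of many chemokines, stood at -1.97 in young, 0.54 in aging and -2.47 in suppressed aging blastocysts. By the brightest probe of each gene, with bounds taken at their smallest value, Dpp4 was the only gene of these 3 lists over 5-fold. It was 5.71-fold higher on the aging than on the young array and 8.08-fold lower on the suppressed aging than on the aging array. With normexp background correction these were log2 differences of 1.57 and -1.70, under 5-fold. Dimmer probes of Arrb2, Sdc1, Ikbkb and Ptk2b were also over 5-fold in some comparison, at 5.82-fold, 5.49-fold, 8.15-fold and 5.18-fold at most. The other Dpp4 probe was above background on the aging array alone, at least 1.35-fold above young and at least 1.12-fold above suppressed aging. Sdc4 (syndecan-4), a heparan sulphate carrier that binds chemokines and the brightest of the list, stood at 8.11, 8.21 and 8.40. Adam10 and Adam17, the sheddases of Cx3cl1 and Cxcl16, stood at 3.11, 3.49 and 3.40 and at -0.23, -0.41 and -0.39.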

How the data were processed

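Gene expression was measured with 1 Agilent SurePrint G3 Mouse 8x60K array per condition. The authors deposited scanner output of Agilent Feature Extraction 12.0.3.1, whose processed signal is an intensity with the background subtracted, and 0/1 calls of spots (other columns: outlier, well above background, positive and significant). A table of intensity values that the authors deposited equals the processed signal times 1 factor per array (within 0.1% for all 30763 spots) and was used as an alternative. The labels and the paper name different amplification kits, so the kit is not given here.

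Spots of a probe were averaged as log2 intensity without outlier spots, less the array's own 75th percentile. A probe was above background where most of its spots were called so. A probe above background on 1 of 2 arrays gave a bound, computed against the lowest level above background on the other array, and on neither gave no difference. A bound takes the value of the brighter array as exact, without its scanner error, and counts over 5-fold or 2-fold use it as it stands. The probe with the highest mean level stood for a gene. A gene differed where it was 5-fold or more apart, with 2-fold beside it. Gene names came from RefSeq accessions (GRCm38.p6). Members and lists were chosen with earlier results of these data known. Named were the members (a result for 1 gene is not reported here), list genes over 5-fold and the brightest gene of each list. Errors are those the scanner software reports, cover spot error only and are not a measured spread. The measured spread of spots, over 300 probes with 10 spots, had a median SD of 0.05 on the log2 scale. Scripts were tested on simulated data. Python 3.11.15 and limma 3.58.1 (R 4.3.3, for normexp) were used.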

Additional observations from a re-analysis of the deposited data

How the results depend on the processing

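No paired analysis was possible because there was 1 array per condition, and no replicate could be left out. Naming by the array's own gene name column was not run, since the files used here hold no such column. Of 239 gene values under the alternatives, 206 moved by less than the scanner error of the probes above background and 33 by more, 24 of these with normexp and 9 without the filter on dim probes, and none over 2-fold changed sign. Of 63 counts, 45 stayed within 1.5 times. Quantile normalization, centring on the median probe or on 15 housekeeping genes, keeping outlier spots and averaging probes of a gene kept every count of members over 5-fold and 2-fold within 1.5 times.

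Normexp background correction with an offset of 50, which by construction shrinks differences of dim probes, left 0, 1 and 0 members over 2-fold in the 3 comparisons (aging and young, suppressed aging and aging, suppressed aging and young), and the 1 was lower. It gave Cx3cl1 0.59, -0.47 and 0.11, the last with the opposite sign to that reported. On the authors' processed values 1 member was over 5-fold in suppressed aging against aging, Cxcl14, at -2.33, since its brighter probe is not in that table and the other stood for the gene (Cx3cl1 was at -2.30), and the split over 2-fold there was 3 higher of 9 in place of 4 of 9. With only probes above background on both arrays, 4 members were over 2-fold in suppressed aging against aging and 0 in suppressed aging against young. Without the filter on dim probes 1, 3 and 3 members were over 5-fold and 12, 17 and 13 over 2-fold. Those over 5-fold were Ccl21a, then Ccl19, Ccl21a and Cxcr2, then Ccl19, Cxcr2 and Cxcr6, all of them bounds in the main values. Without this filter the median of all named genes shifted to -0.11, 0.13 and 0.07. With 2-fold as the threshold in place of 5-fold, 4, 9 and 3 members passed. By the call of a positive and significant signal, 37, 35 and 32 of 61 members were detected, against 81.5%, 80.3% and 79.2% of all named genes.

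Signal over background limits the members not above background on an array. A bound states the smallest difference that the background allows and not its size, with the value of the brighter array taken as exact.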
